A study of Mus musculus with 22 samples.

Results

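Brown and beige adipocytes are specified by a small set of transcription regulators, and 10 of them are described here in inguinal white fat: Cebpb, Cebpa, Prdm16, Ehmt1, Zfp516, Ebf1, Ebf2, Zfp423, Tle3 and Irf4. Each was read from the probe set whose only gene symbol was that regulator, or from the brightest such probe set where there were 2 (Prdm16 and Ebf2). All 10 were found among the 22180 genes that could be measured in this way. The array values are log2 intensities, so a difference of 1 is a doubling, and changes were read between samples of the same gene. Levels of different genes were not compared, except that dim probe sets are placed against the lower quartile and median of all genes.

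The study compared male C57BL/6 mice that lack PPARα in the whole body (PPARα-null) with wild-type mice, all 3 to 4 months old when the experiment began. Every mouse first spent 5 weeks at 28 °C, which is thermoneutral for a mouse, and the cold groups then had 1 week at 21 °C followed by 10 days at 5 °C. For the 28 °C groups the labels give 10 further days at 28 °C and no week at 21 °C. The comparison of 5 °C with 28 °C therefore takes in that step. Of the 10 mice housed per group, arrays were available for 5 null mice at 5 °C, 5 wild-type mice at 5 °C, 6 null mice at 28 °C and 6 wild-type mice at 28 °C. Each array held RNA from the inguinal fat of a single mouse, and the labels do not say how the arrayed mice were picked. The null allele acts in every cell and throughout life, so adipocytes and all other cells of the depot lack PPARα alike.

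Brown and beige adipocytes burn fuel to make heat, and cold drives beige cells to appear in the inguinal depot. PRDM16 docks on other factors, among them C/EBPβ, PPARγ and the methyltransferase EHMT1, to turn on the thermogenic program and hold back the white one. EBF2 opens chromatin at brown fat genes, ZFP516 and IRF4 act at thermogenic genes such as Ucp1, and ZFP423 and TLE3 act on the opposite, white side. C/EBPα, C/EBPβ and EBF1 also serve fat cell differentiation of any kind.

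The 22 arrays were alike, with pairwise correlations of 0.966 to 0.990. The probe set for Ppara, the deleted gene, read 5.77 to 7.10 in null mice at 5 °C, 6.13 to 6.98 in wild-type mice at 5 °C, 4.14 to 5.45 in null mice at 28 °C and 4.42 to 5.00 in wild-type mice at 28 °C, so it did not separate the genotypes. Where its probes lie relative to the deleted part was not known here, and it therefore checks no label. Ucp1, the heat-producing uncoupling protein, was at least 12.25 in every mouse at 5 °C and at most 6.47 in every mouse at 28 °C, so the temperature labels held.

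Cold changed 3 of the 10 regulators in null mice and 3 of the 10 in wild-type mice at an adjusted p under 0.05 (limma, Benjamini-Hochberg over all genes). Of all genes, 13.2% passed in null mice (6.88% higher and 6.33% lower) and 16.7% in wild-type mice (8.35% higher and 8.3% lower). Cebpb rose in both genotypes, Ebf1 fell in both, Irf4 fell in null mice and Prdm16 rose in wild-type mice. Averaged over both genotypes, 5 of the 10 passed, with Cebpb and Prdm16 higher and Ebf1, Ebf2 and Irf4 lower, against 24.8% of all genes (11.7% higher and 13.1% lower). The median change over the 10 was -0.05, and over all genes it was 0.01. No regulator passed the test between genotypes at either temperature, and none passed the test of a difference in cold effect.

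**Figure D1:**
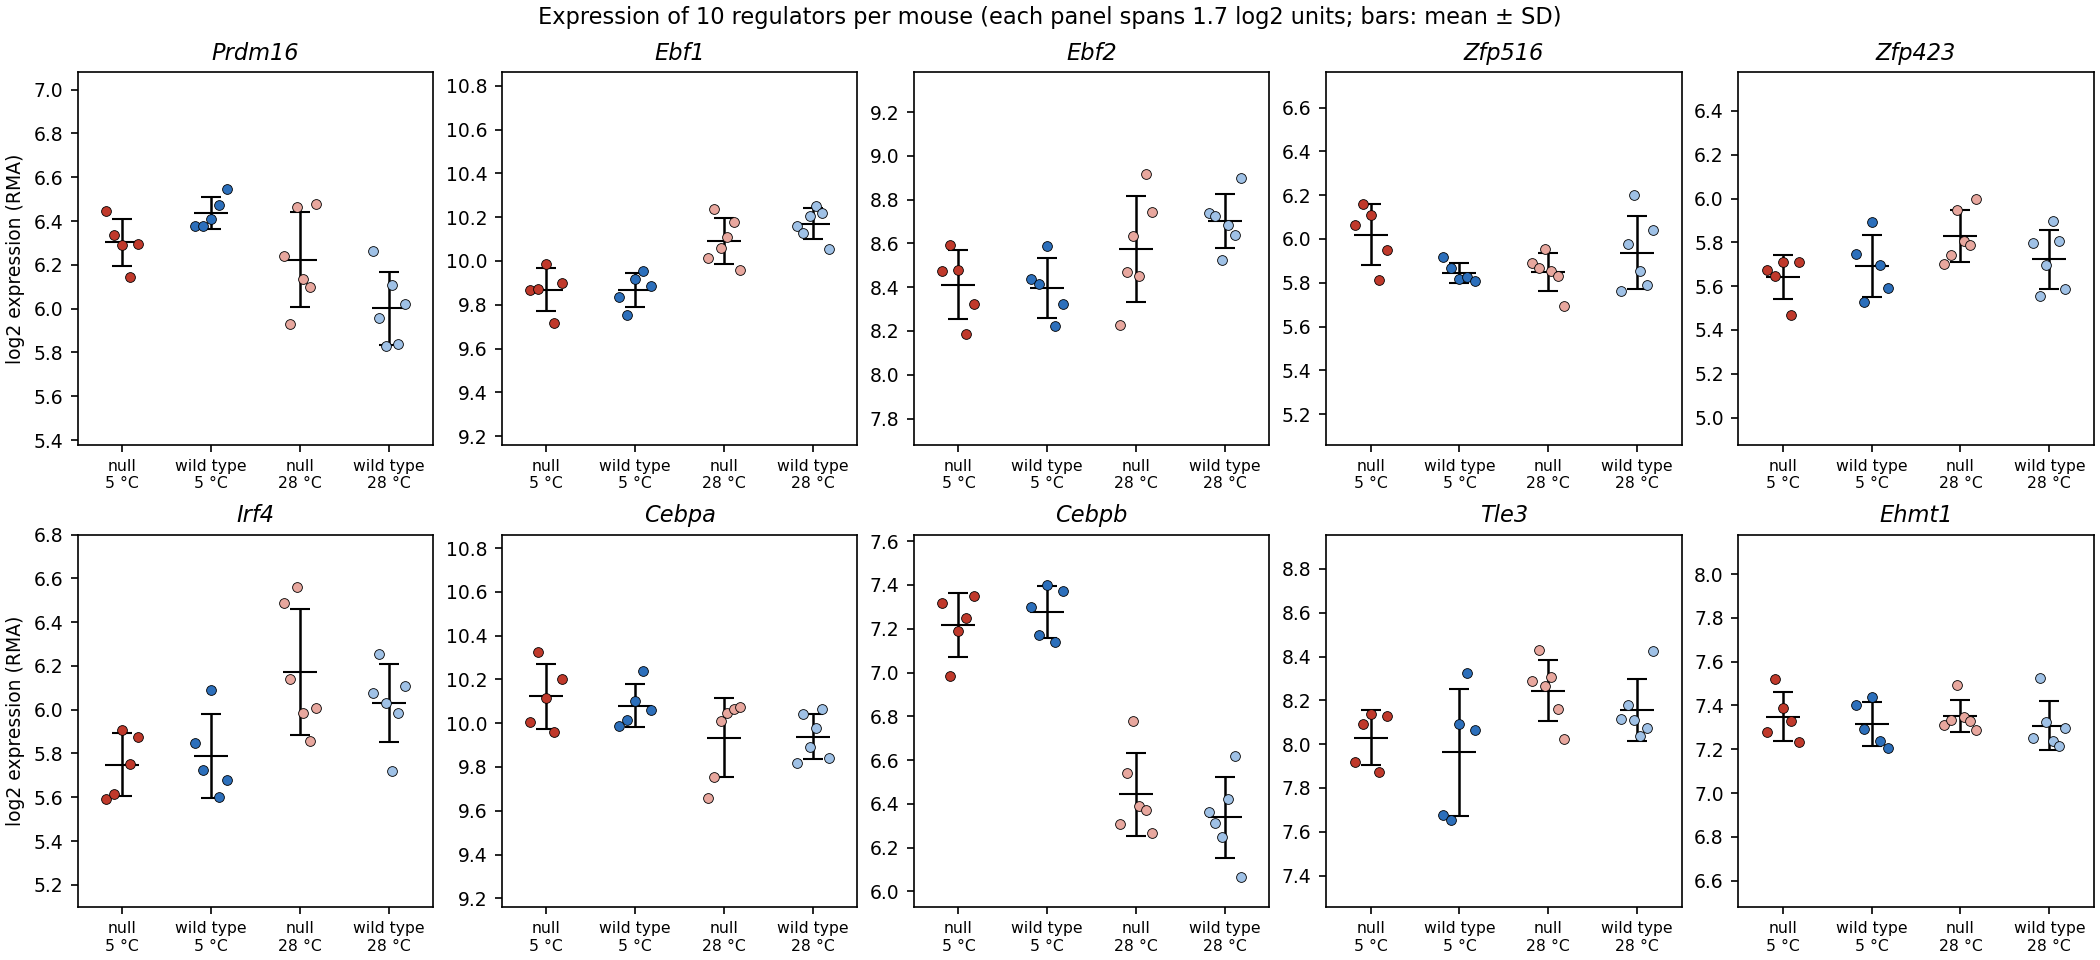
Expression of the 10 regulators in each mouse, 1 panel a gene, with log2 intensity on the vertical axis and the 4 groups on the horizontal axis (null 5 °C, wild-type 5 °C, null 28 °C, wild-type 28 °C). Points are mice, and bars are the mean ± SD. All panels span the same number of log2 units. Cebpb separates the temperatures in both genotypes, and in the other 9 panels groups overlap in at least 1 genotype.

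The largest change among the regulators was that of Cebpb, which encodes C/EBPβ, an early factor of adipogenesis and a partner of PRDM16 that also responds to cAMP (chromosome 2, 167688915 to 167690432, GRCm38.p6). Null mice at 5 °C had 7.32, 6.98, 7.19, 7.25 and 7.35, and null mice at 28 °C had a lowest value of 6.27, a median of 6.38 and a highest of 6.78. Wild-type mice at 5 °C had 7.30, 7.17, 7.40, 7.14 and 7.37, and wild-type mice at 28 °C had a lowest value of 6.06, a median of 6.34 and a highest of 6.62. Every cold mouse was above every 28 °C mouse of its genotype. It was the only regulator whose temperature groups were apart in null mice, where 9.11% of all genes had groups that did not overlap. In wild-type mice Cebpb, Prdm16 and Ebf1 were apart, beside 11.8% of all genes.

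The cold effect on Cebpb was 0.77 (SE 0.10) in null mice, a 1.71-fold rise with an adjusted p of 1.196e-05 (limma). In wild-type mice it was 0.94 (SE 0.10), a 1.92-fold rise with an adjusted p of 7.658e-07 (limma). The effect in null mice minus that in wild-type mice was -0.16, with a 95% interval of -0.46 to 0.13 and an adjusted p of 0.9985 (limma). At equal temperature the genotypes overlapped, with null minus wild type at -0.06 (95% interval -0.28 to 0.16) at 5 °C and 0.10 (-0.10 to 0.31) at 28 °C.

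The promoter of Cebpb is shown because it belongs to the regulator with the largest cold response, together with those of Prdm16 and Ebf1, the other regulators whose temperature groups did not overlap in wild-type mice. Each sequence is from RefSeq on GRCm38.p6, runs from 250 bases before to 50 bases after an annotated gene start, and is written 5′ to 3′ on the gene's strand. Capitals mark matches to TGACG (a CRE half-site, bound by CREB factors), TTGCNNAA (C/EBP), CCCNNGGG (EBF) or CCAAT (the CCAAT box), searched on both strands. Cebpb is at chr2:167688665-167688964 on the plus strand, Prdm16 at chr4:154636824-154637123 on the minus strand, and Ebf1 has 2 starts, at chr11:44617850-44618149 and chr11:44619978-44620277, both on the plus strand.
Cebpb: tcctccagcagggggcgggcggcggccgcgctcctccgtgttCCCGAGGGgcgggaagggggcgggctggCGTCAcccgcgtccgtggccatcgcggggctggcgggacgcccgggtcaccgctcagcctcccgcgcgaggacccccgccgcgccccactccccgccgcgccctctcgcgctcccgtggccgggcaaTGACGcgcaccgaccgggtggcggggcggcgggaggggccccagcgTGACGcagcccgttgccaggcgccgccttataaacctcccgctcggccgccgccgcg
Prdm16: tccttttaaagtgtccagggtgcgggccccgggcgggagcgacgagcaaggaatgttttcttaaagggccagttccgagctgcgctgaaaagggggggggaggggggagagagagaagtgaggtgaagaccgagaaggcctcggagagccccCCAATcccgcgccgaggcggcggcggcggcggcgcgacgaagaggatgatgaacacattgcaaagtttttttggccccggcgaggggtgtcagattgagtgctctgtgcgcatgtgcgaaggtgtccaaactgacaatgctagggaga
Ebf1, start 1: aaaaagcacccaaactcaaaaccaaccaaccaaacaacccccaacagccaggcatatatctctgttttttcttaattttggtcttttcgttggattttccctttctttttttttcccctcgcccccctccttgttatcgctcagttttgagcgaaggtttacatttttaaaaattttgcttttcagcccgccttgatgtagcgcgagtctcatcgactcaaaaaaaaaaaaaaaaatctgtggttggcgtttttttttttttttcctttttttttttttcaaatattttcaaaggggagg
Ebf1, start 2: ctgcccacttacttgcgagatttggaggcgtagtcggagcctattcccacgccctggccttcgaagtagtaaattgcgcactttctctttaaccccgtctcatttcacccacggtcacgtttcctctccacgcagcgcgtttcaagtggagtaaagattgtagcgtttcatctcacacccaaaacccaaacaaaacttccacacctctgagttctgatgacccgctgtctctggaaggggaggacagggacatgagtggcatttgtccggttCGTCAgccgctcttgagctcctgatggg

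The Cebpb promoter held 3 matches to TGACG, beginning 180, 53 and 7 bases before the gene start, and an EBF match beginning 208 bases before it. Of 32851 mouse promoters of the same length, 20.8% held TGACG at least once and 13.7% held the EBF motif. The promoter was rich in G and C, at 80.7% of its bases. The Prdm16 promoter held a CCAAT box 98 bases before the annotated start used, a motif in 37.4% of promoters. Of the 2 Ebf1 starts, the first had none of the 4 motifs in its window and the second had TGACG at position 23 after the start. The whole Prdm16 window lies within the span of the gene (154316122 to 154637360). The second Ebf1 window also lies within its gene (44618100 to 45008096). Bases before these internal starts are therefore not upstream of the whole gene. No matches overlap each other in these windows, and a match describes the letters only.

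Promoters of 8 of the 10 regulators were in the table, those of Ebf2 and Zfp516 being the others. Besides Cebpb and Ebf1, TGACG was found in the promoter of Tle3, 116 bases before its start and together with a CCAAT box 46 bases before it. The C/EBP motif, held by 10.8% of all promoters, was found among the regulators at Zfp423 alone, where it stood 131 bases before and at position 23 after one of 2 starts, and the other start had an EBF match 28 bases before it. Both Zfp423 windows lie within the span of the gene (87661810 to 87962053), so these starts are internal too. No match to any of the 4 motifs was found in the windows of Cebpa, Irf4 and Ehmt1.

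Cebpa encodes C/EBPα, which with PPARγ maintains the mature fat cell and is used by white and brown adipocytes alike. At 5 °C the null mice had 10.01, 10.32, 10.12, 9.96 and 10.20, and null mice at 28 °C had a lowest value of 9.66, a median of 10.03 and a highest of 10.07. Among wild-type mice, those at 5 °C had 9.99, 10.02, 10.10, 10.24 and 10.06, and wild-type mice at 28 °C had 9.82, 9.94 and 10.07 as lowest, median and highest. The highest value in each genotype was that of a cold mouse, and the temperature groups overlapped. The change was 0.19 (adjusted p = 0.1937) in null mice, 0.14 (adjusted p = 0.32) in wild-type mice and 0.16 (adjusted p = 0.05929) on average, by limma. With the dimmest 25% of genes left out, the average change had an adjusted p of 0.04102 (limma), so Cebpa lay close to the threshold.

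Prdm16, the docking factor of the brown program, passed in wild-type mice and did not pass in null mice, and the test of that contrast itself did not pass over all genes. The gene lies on chromosome 4 (154316122 to 154637360, GRCm38.p6). Null mice at 5 °C had 6.45, 6.34, 6.29, 6.14 and 6.30, and null mice at 28 °C had a lowest value of 5.93, a median of 6.19 and a highest of 6.48. Wild-type mice at 5 °C had 6.38, 6.38, 6.41, 6.48 and 6.55, and wild-type mice at 28 °C had a lowest value of 5.83, a median of 5.99 and a highest of 6.26. In null mice the range at 28 °C took in every cold value, whereas in wild-type mice every cold value was above every 28 °C value.

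The change in Prdm16 was 0.08 (SE 0.10, adjusted p = 0.698) in null mice and 0.43 (SE 0.10, adjusted p = 0.002812) in wild-type mice, by limma. The difference between these effects, null minus wild type, was -0.36 with a 95% interval of -0.64 to -0.07 and an unadjusted p of 0.01705, and after adjustment it did not pass (adjusted p = 0.9631, limma). At an unadjusted p under 0.05, 5.13% of all genes had such a difference, and after adjustment 0 of 22180 did (0%). Set between genotypes, null minus wild type was -0.13 at 5 °C (95% interval -0.35 to 0.08, adjusted p = 0.8815) and 0.22 at 28 °C (0.03 to 0.41, adjusted p = 0.649), by limma. At 28 °C the 10 skeletal muscle markers had a median of -1.59 for null minus wild type. Of them 7 had an unadjusted p under 0.05 (limma), beside 6.74% of all genes, and 0 passed after adjustment, beside 0.194%. These markers come from 1 tissue and can vary together, so they are not separate results. With their mean level as a covariate, Prdm16 was at 0.29 at 28 °C (adjusted p = 0.5447) and the difference of its cold effects at -0.41 (adjusted p = 0.8573, limma).

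A second Prdm16 probe set, which was dimmer, did not show the rise. At 5 °C it averaged 3.91 ± 0.07 in null mice and 3.67 ± 0.27 in wild-type mice (SD, n = 5 each), and at 28 °C it averaged 3.74 ± 0.13 in null mice and 3.86 ± 0.32 in wild-type mice (SD, n = 6 each). Its cold effect in wild-type mice was -0.19 (adjusted p = 0.3796, limma), the opposite sign of that of the brighter set. The lower quartile of all genes lay between 2.94 and 3.05 on the arrays, and the median of all genes was 4.67, so this probe set lay between the lower quartile and the median. With the mean of both probe sets the cold effect in wild-type mice was 0.12 (adjusted p = 0.4458, limma). The rise in Prdm16 therefore rests on 1 probe set.

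Ehmt1 encodes the histone methyltransferase that works with PRDM16, and it had no detectable change. Cold null mice measured 7.28, 7.52, 7.39, 7.33 and 7.23, and null mice at 28 °C had 7.29, 7.33 and 7.49 as lowest, median and highest. Cold wild-type mice measured 7.40, 7.29, 7.44, 7.24 and 7.21, and wild-type mice at 28 °C had 7.22, 7.27 and 7.52 as lowest, median and highest. All 4 groups covered the same range. The 95% interval of the cold effect was -0.15 to 0.15 in null mice and -0.14 to 0.15 in wild-type mice.

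Zfp516 encodes a cold-inducible zinc finger factor that acts at the Ucp1 gene together with PRDM16. The null mice at 5 °C measured 6.06, 6.16, 6.11, 5.81 and 5.95, and null mice at 28 °C had 5.69, 5.86 and 5.95 as lowest, median and highest. The wild-type mice at 5 °C measured 5.92, 5.87, 5.82, 5.82 and 5.81, and wild-type mice at 28 °C had 5.76, 5.92 and 6.20 as lowest, median and highest. At 5 °C 4 of the 5 null mice were above all 5 wild-type mice, and at 28 °C the genotypes overlapped.

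The change in Zfp516 with cold was 0.17 (adjusted p = 0.193) in null mice and -0.09 (adjusted p = 0.5073) in wild-type mice, by limma, and neither passed. The difference of the effects, null minus wild type, was 0.26 with a 95% interval of 0.03 to 0.50 and an unadjusted p of 0.03081 (adjusted p = 0.9631, limma). Zfp516 and Prdm16 were the regulators with an unadjusted p under 0.05 for that difference (limma), with opposite signs. Of all genes 5.13% were under that threshold and 0 passed after adjustment, so neither was shown to differ between genotypes.

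Ebf1 fell in the cold. It encodes an early B cell factor that B lymphocytes, preadipocytes and adipocytes express and that promotes adipogenesis (chromosome 11, 44618100 to 45008096, GRCm38.p6). Null mice at 5 °C had 9.87, 9.87, 9.99, 9.72 and 9.90, and null mice at 28 °C had a lowest value of 9.96, a median of 10.08 and a highest of 10.24. Wild-type mice at 5 °C had 9.84, 9.75, 9.92, 9.95 and 9.88, and wild-type mice at 28 °C had a lowest value of 10.06, a median of 10.18 and a highest of 10.25. In null mice 1 cold value overlapped the 28 °C range, and in wild-type mice the groups were apart.

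The cold effect on Ebf1 was -0.22 (SE 0.07, adjusted p = 0.02657) in null mice and -0.30 (SE 0.07, adjusted p = 0.002312) in wild-type mice, by limma. The difference, null minus wild type, was 0.08 with a 95% interval of -0.12 to 0.27. The call in null mice was lost without null 5 °C replicate 1 or 4 or null 28 °C replicate 2 or 5, at adjusted p of 0.05325, 0.09038, 0.06844 and 0.05752 (limma). It was also lost with array medians subtracted (-0.19, adjusted p = 0.06382) and with a spread estimated from the null mice alone (adjusted p = 0.09847).

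Ebf2 encodes the paralog that marks committed brown and beige precursors (chromosome 14, 67233292 to 67430952, GRCm38.p6). In null mice at 5 °C Ebf2 was 8.47, 8.59, 8.48, 8.19 and 8.32, and null mice at 28 °C had 8.23, 8.55 and 8.92 as lowest, median and highest. In wild-type mice at 5 °C it was 8.44, 8.42, 8.59, 8.22 and 8.32, and wild-type mice at 28 °C had 8.52, 8.70 and 8.90 as lowest, median and highest. Temperature groups overlapped in both genotypes, in wild-type mice through a single cold mouse, at 8.59.

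The change in Ebf2 was -0.16 (SE 0.11, adjusted p = 0.3861) in null mice and -0.31 (SE 0.11, adjusted p = 0.05305) in wild-type mice, by limma. Averaged over genotypes Ebf2 fell by 0.23 (SE 0.08, adjusted p = 0.02465, limma). The average call was lost without null 5 °C replicate 4 (adjusted p = 0.05378) or wild-type 5 °C replicate 4 (adjusted p = 0.05018), and with array medians subtracted (-0.19, adjusted p = 0.08119). A second Ebf2 probe set averaged 2.89 ± 0.32 in the null and 3.04 ± 0.18 in the wild-type cold group (SD, n = 5 each), and at 28 °C it averaged 2.98 ± 0.08 in null mice and 2.92 ± 0.13 in wild-type mice (SD, n = 6 each). That is at the lower quartile of all genes, and its average change was 0.01.

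**Figure D2:**
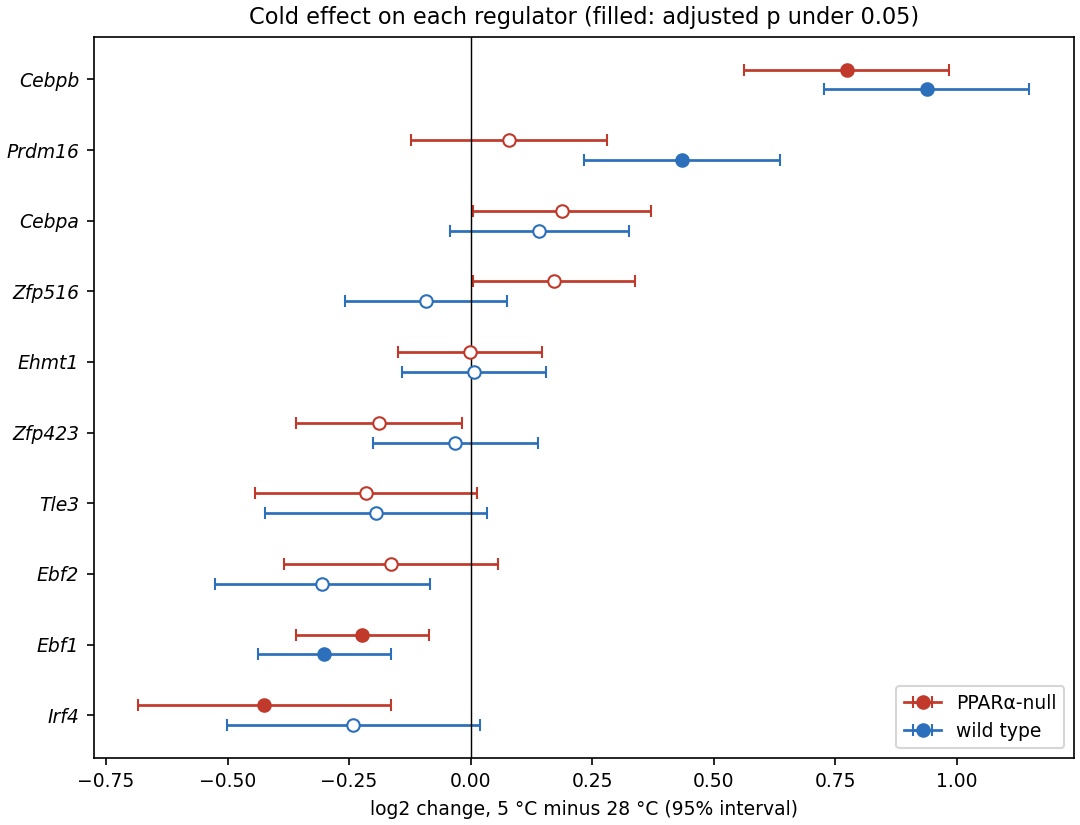
Cold effect on each regulator as the log2 change at 5 °C minus 28 °C, with 95% intervals, in null and in wild-type mice. Filled points passed an adjusted p under 0.05 (limma). Cebpb stands at 0.77 in null and 0.94 in wild-type mice, and the intervals of the genotypes overlap for every regulator.

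Zfp423 encodes a zinc finger protein that marks preadipocytes and keeps white adipocytes white by binding EBF2. Cold null mice had 5.68, 5.65, 5.71, 5.47 and 5.71, and null mice at 28 °C had 5.70, 5.80 and 6.00 as lowest, median and highest. Cold wild-type mice had 5.75, 5.53, 5.89, 5.70 and 5.59, and wild-type mice at 28 °C had 5.55, 5.75 and 5.90 as lowest, median and highest. The null groups overlapped narrowly, and the wild-type groups covered the same range. The change was -0.19 (adjusted p = 0.1545) in null mice and -0.03 (adjusted p = 0.8542) in wild-type mice, by limma, and their difference had a 95% interval of -0.40 to 0.08.

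Tle3 encodes a corepressor that binds PPARγ and counters PRDM16. Null mice at 5 °C had 7.92, 8.09, 8.14, 7.87 and 8.13, and null mice at 28 °C had 8.02, 8.28 and 8.43 as lowest, median and highest. Wild-type mice at 5 °C had 7.68, 7.65, 8.09, 8.32 and 8.07, and wild-type mice at 28 °C had 8.04, 8.11 and 8.43 as lowest, median and highest. Groups overlapped in both genotypes, and the cold wild-type mice were the most spread, with 1 of them above 5 of the 6 wild-type mice at 28 °C. The change was -0.22 (adjusted p = 0.2402) in null mice, -0.19 (adjusted p = 0.2654) in wild-type mice and -0.20 (adjusted p = 0.05989) on average, by limma. The average passed without wild-type 5 °C replicate 4, the mouse at 8.32 (adjusted p = 0.014, limma).

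Irf4 encodes a factor that cAMP induces in fat and that works with PGC-1α at thermogenic genes, and that is also known from lymphocytes and macrophages (chromosome 13, 30749233 to 30766981, GRCm38.p6). Null mice at 5 °C had 5.59, 5.62, 5.91, 5.75 and 5.88, and null mice at 28 °C had a lowest value of 5.86, a median of 6.08 and a highest of 6.56. Wild-type mice at 5 °C had 5.85, 5.73, 6.09, 5.60 and 5.68, and wild-type mice at 28 °C had a lowest value of 5.72, a median of 6.05 and a highest of 6.26. Groups overlapped in both genotypes, with 3 of the 5 cold null mice below every null mouse at 28 °C.

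The cold effect on Irf4 was -0.42 (SE 0.12, adjusted p = 0.02608) in null mice and -0.24 (SE 0.12, adjusted p = 0.2151) in wild-type mice, by limma. The difference, null minus wild type, was -0.18 with a 95% interval of -0.55 to 0.18, so the genotypes were not shown to differ. The call in null mice was lost without null 5 °C replicate 1 or 2 or null 28 °C replicate 1 or 3, at adjusted p of 0.07421, 0.06627, 0.06623 and 0.06377 (limma), and with a spread from the null mice alone (0.06799). Averaged over genotypes Irf4 fell by 0.33 (SE 0.09, adjusted p = 0.007083, limma), and that call held without each array in turn.

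Between genotypes none of the 10 regulators passed at 5 °C or at 28 °C (limma), in a background of 0.149% of genes called at 5 °C and 0.194% at 28 °C. In no regulator were the genotypes apart at either temperature, beside 1.22% of all genes at 5 °C and 0.555% at 28 °C. The estimates, null minus wild type, ran from -0.13 for Prdm16 to 0.17 for Zfp516 at 5 °C and from -0.13 for Ebf2 to 0.22 for Prdm16 at 28 °C. Only Prdm16 at 28 °C had an unadjusted p under 0.05, at 0.026, beside 6.65% of all genes at 5 °C and 6.74% at 28 °C. The widest 95% interval at 5 °C was that of Irf4, from -0.31 to 0.23.

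The families of the regulators were not uniform. Their counts on average over genotypes stand beside 11.7% of all genes that rose and 13.1% that fell. In the C/EBP family 2 of 6 members rose and 1 fell on average over genotypes: Cebpg, a short member that pairs with other C/EBPs, rose by 0.23 beside Cebpb, and Cebpd, which acts early in adipogenesis alongside Cebpb, fell by 0.53. Cebpd changed by -0.34 in null mice (adjusted p = 0.2232) and by -0.72 in wild-type mice (adjusted p = 0.003696, limma). On average over genotypes, these early C/EBP genes thus moved in opposite directions. In the EBF family 2 of 4 fell, Ebf1 and Ebf2, and Ebf3 (0.08) and Ebf4 (0.09) did not pass.

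Zfp521, the paralog of Zfp423 and an inhibitor of adipogenesis, fell by 0.58 on average, with changes of -0.66 in null mice (adjusted p = 3.779e-05) and -0.51 in wild-type mice (adjusted p = 0.000534, limma). Zfp423 itself did not pass. In the TLE family, corepressors without DNA binding of their own, 4 of 6 fell on average, beside 13.1% of all genes: Tle1 (-0.32), Tle2 (-0.21), Tle4 (-0.23) and Tle6 (-0.30). The calls of Tle2 and Tle4 were lost with array medians subtracted, and that of Tle2 with quantile normalization repeated. In null mice 0 of the 6 fell, beside 6.33% of all genes, and in wild-type mice 1 fell, beside 8.3%. Tle5, a short member that lacks part of the others and can counter them, rose by 0.25, at 0.29 in null mice and 0.21 in wild-type mice.

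In the IRF family 4 of the 7 measured members fell on average, beside 13.1% of all genes, and none rose. With Irf4 these were Irf2 (-0.37), Irf7 (-0.39) and Irf9 (-0.30), factors of the interferon response. In null mice Irf4 alone fell, beside 6.33% of all genes. In wild-type mice 3 members fell, Irf4 not among them, beside 8.3% of all genes. The wild-type calls of Irf7 and Irf9 were lost with array medians subtracted. Of the 14 PRDM genes measured, Prdm16 and Prdm13 (0.32) rose and Prdm2 (-0.30) fell on average. In null mice 0 of the 14 passed, beside 13.2% of all genes. In wild-type mice 1 rose and 1 fell, beside 8.35% and 8.3%. No EHMT complex gene of the 3 measured passed, and Ehmt2, the partner methyltransferase of Ehmt1, changed by -0.02. Median changes were 0.13 for the C/EBP, -0.08 for the EBF, -0.33 for the IRF, -0.03 for the PRDM and -0.22 for the TLE family, against 0.01 for all genes. In these and the following lists 0 called genes turned their sign under either scaling, and with array medians subtracted the calls on average of Ebf2, Tle2, Tle4, Nrip1, Rbl2, Hoxc9, Pdgfrb and Vwf were lost.

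**Figure D3:**
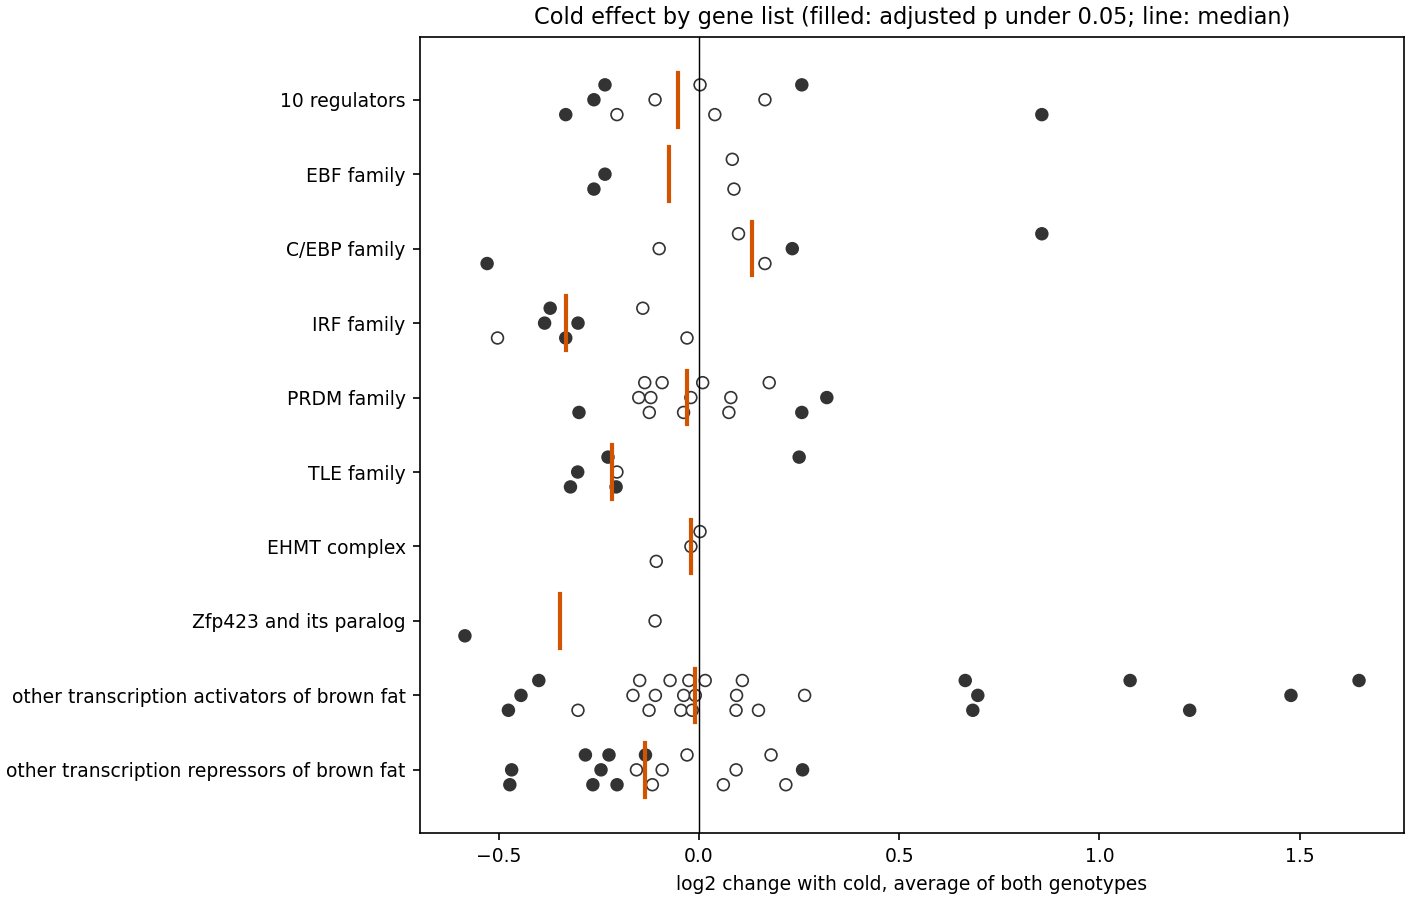
Log2 change with cold, averaged over both genotypes, of every measured gene in the lists of regulators, their families and other brown fat regulators, 1 list a line. Filled points passed an adjusted p under 0.05 (limma) and vertical marks are list medians. IRF and TLE points lie mostly left of 0, whereas in the C/EBP line Cebpb and Cebpd stand on opposite sides.

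Several other genes listed here as activators of brown fat transcription had larger changes than Cebpb. What each listed gene does in this tissue was not tested. Of 29 listed activators 27 were measured, and 7 rose and 3 fell in null mice, with the same counts in wild-type mice and on average. Of all genes, 6.88% rose and 6.33% fell in null mice, 8.35% and 8.3% in wild-type mice, and 11.7% and 13.1% on average. The coactivators Ppargc1b (1.48) and Ppargc1a (1.23), the nuclear receptor Ppara (1.65) and the transcription factor Gtf2ird1 (1.08) had the smallest p-values. Ppara is the deleted gene, its probe set did not separate the genotypes, and its rise in null mice (1.42) is counted here as that of the probe set only. Those that fell were Zbtb16 (-0.48), Lhx8 (-0.44) and Thra, the thyroid hormone receptor α (-0.40). With array medians subtracted the call of Zbtb16 was lost in each genotype and that of Lhx8 in wild-type mice. Lhx8 in wild-type mice was also lost with quantile normalization repeated. The list's median was -0.01, near that of all genes, and most of its members did not pass.

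Of 18 listed repressors 17 were measured, and 8 fell and 1 rose on average, beside 13.1% and 11.7% of all genes. In null mice 2 fell, beside 6.33% of all genes, and in wild-type mice 6 fell, beside 8.3%, and none rose in either. With array medians subtracted the calls of Nrip1 and Rbl2 on average were lost, which left 6 lower. Under the same scaling the calls of Foxo1 in null mice and Rbl2 in wild-type mice were lost. Rbpj, the DNA-binding partner of Notch (-0.47), Foxp1 (-0.47), the pocket protein gene Rbl1 (-0.26) and Foxo1, which insulin signaling restrains (-0.28), had the smallest p-values, and Hoxc10, a homeobox gene of subcutaneous white fat, rose by 0.26. The list's median change was -0.13.

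Genes downstream of the regulators are given for scale. Of all genes, 6.88% rose in null and 8.35% in wild-type mice, and on average 11.7% rose and 13.1% fell. Of 11 thermogenic targets measured, 10 rose in each genotype, with a median average change of 2.75, with the largest changes in Ucp1 (6.98) and Elovl3 (6.82), a fatty acid elongase of brown fat. Of 10 white-fat genes, 5 fell and 1 rose on average, among them the matrix gene Dpt (-0.47), the growth factor Igf1 (-0.36), Agt, encoding angiotensinogen (-0.48), and the leptin gene Lep (-0.74), with Wfdc21 rising by 0.34. Of 10 adipocyte genes shared by white and brown fat, the glucose transporter Slc2a4 (0.58) and the lipase Pnpla2 (0.19) rose and Adipoq, encoding adiponectin, fell by 0.32. The counts of these shared genes lay near the shares of all genes.

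Several regulators are also active in cells other than adipocytes, and in whole tissue fewer cells of a type and less RNA per cell cannot be told apart. Of all genes, 6.33% fell in null mice, 8.3% in wild-type mice and 13.1% on average. All 10 macrophage markers fell in each genotype (C1qb -0.67, Mrc1 -0.67, C1qc -0.60 and Lyz2 -0.66 on average). Their mean level was 8.05 to 8.22 in null and 7.96 to 8.31 in wild-type mice at 5 °C, and 8.57 to 8.88 in null and 8.63 to 8.90 in wild-type mice at 28 °C. All 10 preadipocyte and fibroblast markers fell on average (9 with array medians subtracted), among them Col1a1 (-0.95), Col1a2 (-0.86), Col3a1 (-0.72) and Pi16 (-0.94). Their mean level was 9.12 to 9.21 in null and 9.08 to 9.28 in wild-type mice at 5 °C, and 9.64 to 9.88 in null and 9.71 to 9.97 in wild-type mice at 28 °C.

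These marker lists moved in the same direction as Ebf1, Ebf2, Irf4 and Zfp521, and opposite to Cebpb and Prdm16. None of their markers lay below the lower quartile of all genes. Their part in the changes of the regulators was not tested.

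Markers of B and T cells varied much more between mice than with temperature, and lymph nodes lie within the inguinal depot. B cells are known to express Ebf1 and Irf4. The mean level of these markers ran from 4.24 to 6.83 in null and 4.34 to 5.88 in wild-type mice at 5 °C, and from 4.66 to 8.04 in null and 4.44 to 7.49 in wild-type mice at 28 °C. None of the 11 measured markers passed in any cold comparison (limma). Of all genes, 13.2% passed in null mice, 16.7% in wild-type mice and 24.8% on average. On average 1 of the 11 had an unadjusted p under 0.05. In either genotype 0 of the 11 had a change above 0, and the median of all genes was -0.003 in null and 0.009 in wild-type mice. Markers of the same cells can vary together, so the 11 signs are not separate results. The median change was -0.69 in null mice, -0.59 in wild-type mice and -0.68 on average. With the mean level of these markers as a covariate, Ebf1 in null mice was at -0.22 (adjusted p = 0.03797), Irf4 in null mice at -0.38 (adjusted p = 0.04596) and Prdm16 in wild-type mice at 0.40 (adjusted p = 0.003572), by limma. Ebf2 in wild-type mice then passed, at -0.36 (adjusted p = 0.005642, limma).

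The 10 regulators were set against 12 marker or target levels across the 22 mice, with each group's mean taken away, which gave 120 relations, and none passed after adjustment over all of them (two-sided permutation test). For Ebf2 and the B and T cell markers Pearson's r was -0.66 (permutation p = 0.00259, adjusted p = 0.1554) and Spearman's rho was -0.56 (permutation p = 0.01449, adjusted p = 0.5304). Without the 2 mice farthest from the median marker level, r was -0.52. For Cebpa and the adipocyte genes shared by white and brown fat, r was 0.66 (permutation p = 0.00213, adjusted p = 0.1554), rho was 0.59 (permutation p = 0.00656, adjusted p = 0.5304) and r without 2 mice was 0.59. Next in p were Cebpa and Zfp423 with plasma cell markers, each at r of -0.58 (adjusted p = 0.3204 and 0.3456 by permutation). With B and T cell markers, Irf4 had r of 0.37 (adjusted p = 0.5942) and Ebf1 of 0.07 (adjusted p = 0.9387) by permutation.

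**Figure D4:**
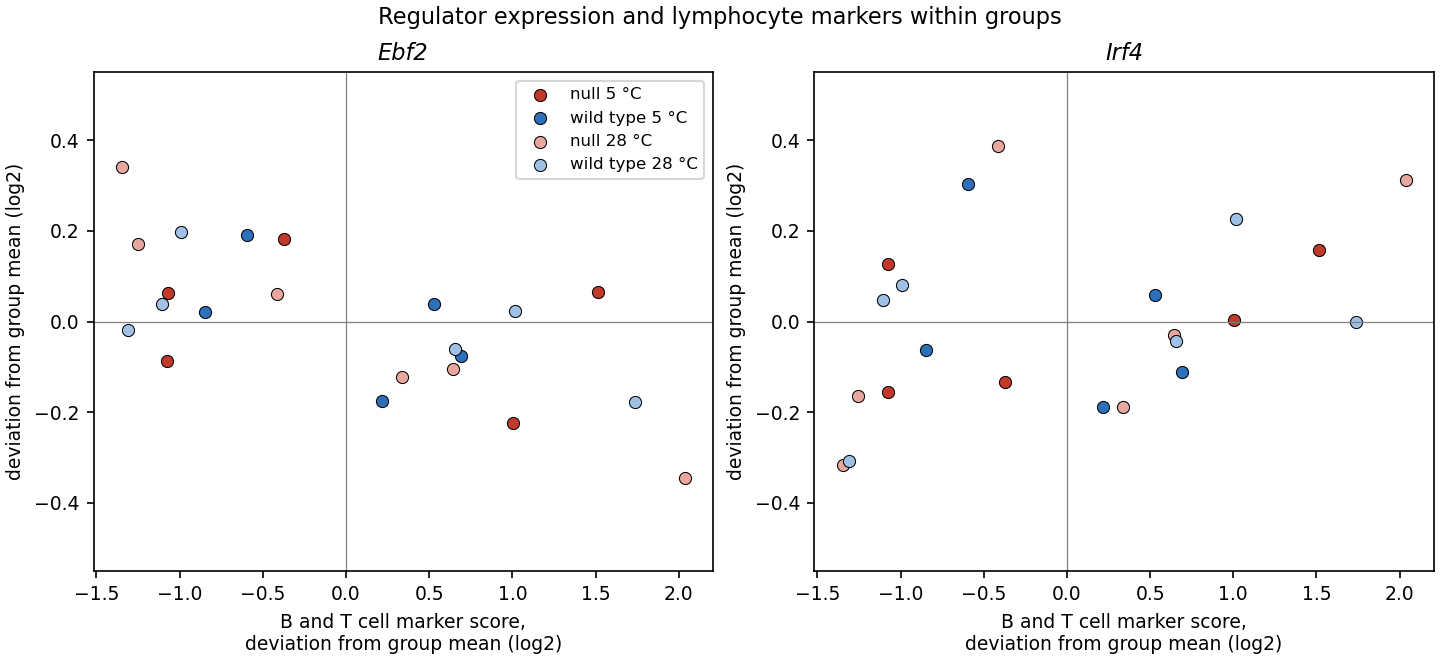
Expression of Ebf2 and Irf4 against the mean level of 11 B and T cell markers, 1 point a mouse, both as the deviation from the mean of the mouse's group on the log2 scale. Ebf2 has r of -0.66 and Irf4 has r of 0.37, and neither passed after adjustment over 120 relations.

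Markers of other cell types were mixed. Their counts stand beside 11.7% of all genes that rose and 13.1% that fell on average. In null mice 13.2% of all genes passed, and in wild-type mice 8.3% fell. None of 10 skeletal muscle markers and none of 4 epithelium markers passed in any cold comparison, and 0 of them had an unadjusted p under 0.05 on average (limma). Of the 4 epithelium markers 0 were above the median of all genes (4.67), and of the 5 plasma cell markers 1 was. A lack of calls among such dim markers shows little. The difference of cold effects, null minus wild type, was above 0 for all 10 muscle markers, with a median of 1.04 and 0 passing. The median of all genes for that difference was -0.003, with 0 passing. The muscle markers can vary together, so their signs are not separate results. The mean level of the muscle markers ranged from 6.63 to 9.53 in null and 6.49 to 9.93 in wild-type mice at 5 °C, and from 6.08 to 8.64 in null and 7.35 to 9.26 in wild-type mice at 28 °C. Of 7 endothelium markers Kdr rose (0.23) and Tek (-0.38) and Vwf (-0.18) fell, and of 5 plasma cell markers Tnfrsf17 fell (-0.56). All 5 mast cell markers passed on average, Mcpt4 (-0.66), Cpa3 (-0.57), Cma1 (-0.46) and Tpsb2 (-0.39) lower and Kit higher (0.31). In null mice 0 of the 5 passed and in wild-type mice 4 fell. For the difference 4 had an unadjusted p under 0.05, beside 5.13% of all genes, and 0 passed after adjustment, beside 0% (limma). Of 3 nerve and Schwann cell markers S100b rose (1.45) and Mbp fell (-0.40).

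For each regulator the genes with the most similar pattern over the 22 arrays were found by Pearson's r, which the temperature groups and single arrays both shape. Cebpb was matched most closely, by Cyp2u1 (0.966), Dnaja3 (0.960) and Ldhb (0.959). For Ebf1 these were Smarca2 (0.913), Ptpra (0.909) and Fry (0.907), for Ebf2 Wnt2 (0.847), Ugdh (0.837) and Cpq (0.829), and for Prdm16 Rbm47 (0.854), Myo19 (0.848) and Dmtn (0.821). Irf4 was nearest to Irf7 (0.801), a member of its own family, then to Plekho1 (0.797) and Arhgef3 (0.786).

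Cebpa was nearest to Slc16a7 (0.816), Gprc5b (0.780) and Trak1 (0.779), and Tle3 to Emp1 (0.816), Ezh1 (0.807) and Sptan1 (0.786). For Zfp516, Zfp423 and Ehmt1 the highest r was below that of each other regulator. The temperature groups shape r, so this cannot be told apart from the size of the cold effect. How high r runs by chance was not tested. Zfp516 had Fbxw19 (0.797), Lect2 (0.748) and Zbtb5 (0.699), Zfp423 had Map1b (0.775), C4a (0.741) and Glrb (0.714), and Ehmt1 had Serpina3a (0.680), Mtmr4 (0.674) and Defb18 (0.661).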

How the data were processed

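Inguinal fat RNA from 22 mice was hybridized to Affymetrix whole-transcript arrays, 1 mouse an array, and the p-values measure the spread between mice. The deposited values are log2 intensities made by the authors with RMA, per the submitters' processing notes (background correction, quantile normalization and probe summary; no version is named in the sources used here), so fold changes of dim genes are compressed. Of 41345 probe sets, 23521 had 1 gene symbol, 1814 several and 16010 none in the platform annotation, which can be old. The brightest probe set per gene gave 22180 genes. Genotype by temperature groups were fitted with limma 3.58.1 (lmFit, contrasts, eBayes) in R 4.3.3 on all 22 arrays, and p-values were adjusted by Benjamini-Hochberg over all genes at 0.05. The fit was also run on simulated data, where recovery of calls was required only for a change larger than any of the regulators. It therefore does not show how well changes of their size are called. Correlations used 100000 permutations within groups (Python 3.11.15, numpy 2.4.6). Standard errors and intervals are those of limma. The number of mice limits the precision.

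The members and gene lists were chosen with earlier results of these data known. Named genes were all regulators, Ppara, Ucp1, every called family member, up to 4 genes of smallest p and those of the opposite direction per other list, and 3 neighbours per regulator. The words rose and fell are used only of what passed, and a change of sign counts only where a value passed. Alternatives were other probe sets, scalings, filters on dim genes, covariates, a replicate block and leaving out each array.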

Additional observations from a re-analysis of the deposited data

Results flagged for a closer look

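In 4 of 40 sets of values (10 regulators in 4 groups) 1 mouse stood apart from the rest of its group by Dixon's test at the 95% level, where chance gives about 1 in 20. Zfp423 was 5.47 in null 5 °C replicate 4, with the next value at 5.65. Tle3 was 8.43 in wild-type 28 °C replicate 6, with the next value at 8.18. Ehmt1 was 7.49 in null 28 °C replicate 3, with the next value at 7.35, and 7.52 in wild-type 28 °C replicate 2, with the next value at 7.32. None of these genes passed in a cold comparison as reported above.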

How the results depend on the processing

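The rise of Cebpb in each genotype and the fall of Ebf1 in wild-type mice and on average kept direction and call under every alternative run. The dimmer probe set of Prdm16 gave -0.00716 on average (adjusted p = 0.9704) and -0.19 in wild-type mice (adjusted p = 0.3796, limma). That of Ebf2 gave 0.0105 on average (adjusted p = 0.9497, limma). These signs are opposite to those of the brighter sets, but none of the values passed, and the cause was not tested. An unadjusted p under 0.001 called 3417 genes on average, 1799 in null and 2249 in wild-type mice, 24 for the difference, and 91 at 5 °C and 86 at 28 °C between genotypes, against 5499, 2930, 3693, 0, 33 and 43. It called 2 regulators on average and 1 in null mice. A spread from the groups compared alone called 1 regulator in null mice and 19 genes between genotypes at 5 °C, and averaging each gene's probe sets left 3 regulators on average. Leaving out 1 array at a time gave 1 to 3 regulators in null mice (1 without null 5 °C replicate 1) and 0 to 1 genes for the difference (1 without wild-type 5 °C replicate 3). With array medians subtracted, the median of all genes moved by at most 0.05, and calls were 1767 higher and 1039 lower in null mice, 2368 and 1354 in wild-type mice and 3325 and 2206 on average, against 1525 and 1405, 1852 and 1841, and 2586 and 2913. Replicate numbers did not pair the mice: over 31 pairs the correlation of deviations ran from -0.25 to 0.35, with a median of -0.04, and 6 pairs correlated best with their own number. With the replicate block 5125 genes were called on average, 2683 in null and 3512 in wild-type mice, and Ebf2 on average was -0.20 (adjusted p = 0.07727, limma), the 1 regulator call that changed. Ebf2 in wild-type mice and Cebpa and Tle3 on average passed under some alternatives. The second probe set of Ebf2 lies at the lower quartile of all genes, which limits what it can show.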
